A study of Sus scrofa with 4 samples.

Results

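The genes of the extracellular matrix that are described here are COL1A2, DCN, LUM, SPARC, THBS1, ADAMTS1, MMP2, MMP14, TIMP1 and TIMP3, measured in thymus from IL2RG KO pigs and from WT pigs. They were chosen by name, and every probe whose RefSeq accession belongs to 1 of these 10 genes was taken. Of the 10 genes, 9 had a named probe, with 35 probes in all, out of 3020 genes with a named probe on the array. TIMP3 had none and is named only. The extracellular matrix is the mesh of secreted proteins that surrounds the cells of a tissue, built around collagen fibres and the proteoglycans that coat and space them. Matricellular proteins attach to this mesh and act on cells without being a main part of its scaffold. Proteases of the MMP and ADAMTS families cut matrix proteins and are held in check by the TIMP inhibitors, and in the thymus most of the matrix is made by stromal cells of the capsule, the septa and the vessels rather than by thymocytes.

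Each of 4 Agilent oligonucleotide arrays for the pig received Cy3-labelled RNA of 1 thymus, 2 arrays being KO and 2 being WT. The KO pigs, IL2RG+/- in the labels, were Minnesota miniature swine with the monoallelic allele named mIL2RG+/Δ69-368, made with TALENs in cells that were then used for cloning by nuclear transfer. The WT pigs were wildtype Minnesota miniature swine, and neither genotype received a treatment according to the labels, which give no age. In the study most KO pigs lacked a thymus at necropsy and the others had a rudimentary one, and the KO arrays were made from pigs of the latter kind. The labels match no array to a pig, and nothing used here says whether the WT arrays came from different pigs, so that p values measure the spread between these samples alone, which may be technical. Slide 1 carried KO replicate 1 with WT replicate 2, and slide 2 carried KO replicate 2 with WT replicate 1.

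The signal of each spot is its brightness after subtraction of the background. Log2 values were averaged over the spots of a probe and taken relative to the 75th percentile of the kept non-control probes of the same array. A value of 0 is thus the 75th percentile of the array, and a step of 1 is a 2-fold difference. Probes had to be well above background on both KO arrays or on both WT arrays, which left 31959, and limma was fitted to these with a spread shared across probes. Calling a probe higher or lower took a Benjamini-Hochberg adjusted p under 0.05 over all 31959 and a difference of 2-fold or more. A positive log2 fold change means a higher signal in KO, and SE stands for its standard error. The text goes by the probe of a gene that was brightest on average, called its brightest probe, and gives the other probes beside it. A single gene measured on 2 arrays against 2 has 0.333 as its smallest possible two-sided exact permutation p.

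IL2RG, the gene that was targeted, which encodes the common gamma chain of several interleukin receptors, was lower in KO at both of its probes, with log2 fold changes of -3.41 and -4.38 and adjusted p values of 0.00256 and 0.00208 in limma. Where these probes lie in relation to the deleted part is not known here. Between 67.9% and 74.5% of the probes of an array were well above background, and no spot was saturated. All 11 tested thymocyte markers, among them the CD3 chains, CD4, CD8A, RAG1 and RAG2, were lower in KO, and all 7 tested macrophage markers were higher. In such bulk samples, fewer cells of a type and less RNA per cell cannot be told apart.

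Most of the matrix genes were higher in KO. By the brightest probe, 5 of the 9 genes were called higher and none lower, and these were COL1A2, DCN, LUM, ADAMTS1 and MMP14. Of all 2702 named genes tested, 25.2% were called higher and 12.6% lower. Of the 35 probes, 26 were called higher and 0 lower, compared with 21.0% higher and 13.0% lower among all tested probes. At an unadjusted p under 0.05 in limma, with no threshold on the fold, 33 of the 35 were higher and 0 lower, compared with 28.8% higher and 28.0% lower among all tested probes. The median log2 fold change was 1.66 over the 9 genes and 1.84 over the 35 probes, and that of all tested probes was -0.06. Both KO arrays lay above both WT arrays at 34 of the 35 probes, which was so at 37.7% of all tested probes, and for 8 of the 9 genes by the brightest probe, which was so for 42.6% of all named genes. Probes of 1 gene share its transcript and are not independent of each other. All 35 probes were well above background on all 4 arrays, so that none of the genes passed the filter through 1 genotype alone.

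**Figure D1:**
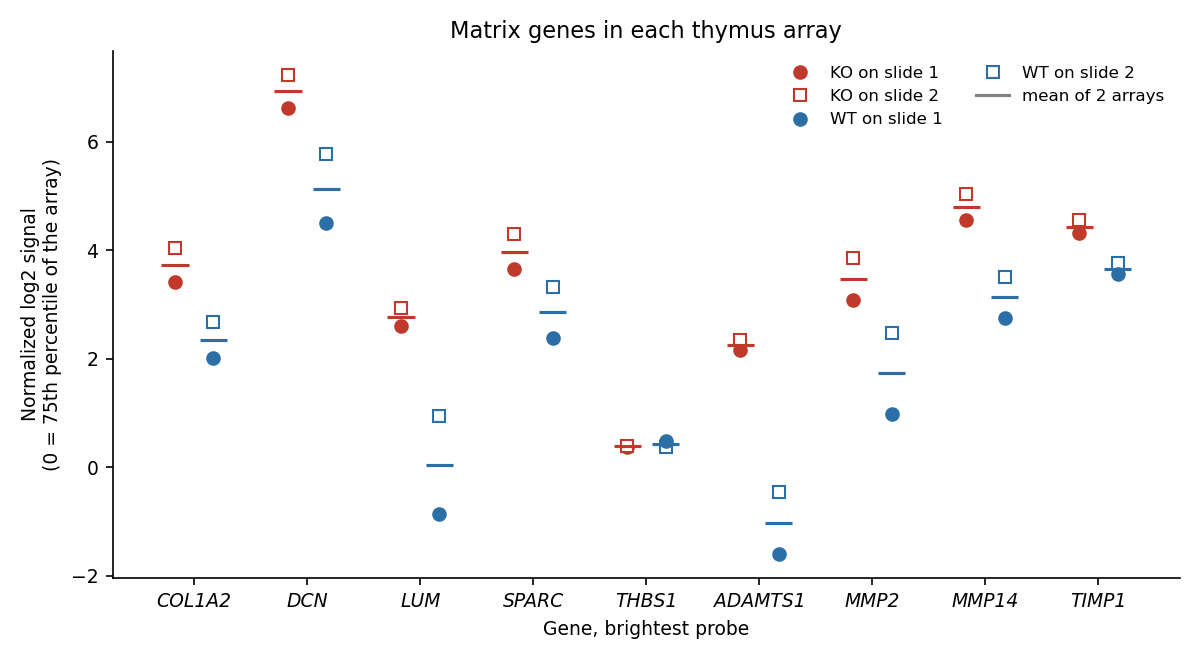
Normalised log2 signal (vertical axis, 0 is the 75th percentile of the array) of the brightest probe of each of the 9 matrix genes (horizontal axis), with 1 point per array and a line at the mean of the 2 arrays of a genotype. Both KO arrays lie above both WT arrays for every gene except THBS1, and the array on slide 2 lies above its partner on slide 1 in both genotypes for every gene except THBS1.

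COL1A2 encodes a chain of type I collagen, the main fibre-forming collagen of connective tissue. Its single probe read 3.41 and 4.04 in KO replicates 1 and 2 on the normalised log2 scale, against 2.67 and 2.01 in WT replicates 1 and 2, the order in which values are given throughout. The lower KO array was above the higher WT array. This was a log2 fold change of 1.39 (SE 0.34, limma adjusted p = 0.0314), or 2.62-fold. On slide 1 the KO array was 1.41 above the WT array and on slide 2 it was 1.38 above it, the closest pair of within-slide values among the called genes.

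DCN encodes decorin and LUM encodes lumican, small leucine-rich proteoglycans that bind collagen fibrils and regulate their thickness and spacing. In RefSeq's gene table for Sscrofa11.1 the 2 genes lie on the same chromosome with 0 protein-coding genes between them. DCN had log2 signals of 6.62 and 7.24 in KO and 5.78 and 4.50 in WT at its brightest probe. The WT arrays were further apart than the KO arrays and did not reach them. Its log2 fold change was 1.79 (SE 0.50, adjusted p = 0.0432 in limma). All 4 DCN probes were called, with log2 fold changes between 1.79 and 1.97.

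LUM had log2 signals of 2.60 and 2.93 in KO and 0.95 and -0.87 in WT. In units of brightness these were 4623 and 5312 in KO, 1197 in WT replicate 1 and 380 in WT replicate 2. The KO arrays were close to each other, whereas WT replicate 1 was 1.82 above WT replicate 2 on the log2 scale and still below both KO arrays. The log2 fold change was 2.73 (SE 0.64, limma adjusted p = 0.0277), or 6.63-fold. All 9 LUM probes were called higher, with log2 fold changes between 2.11 and 2.76, and the 4 brightest of them stood at 2.64 or above. LUM rose more than DCN on each slide, by 3.47 against 2.12 on slide 1 and by 1.99 against 1.46 on slide 2. The log2 ratio of LUM to DCN within an array stood at -4.02 and -4.30 in KO, above the -4.83 and -5.37 of WT, and differed by 0.94 with no overlap (two-sided exact permutation p = 0.333, the smallest this design allows). With the mean over the probes of each gene in place of the brightest probe, that difference was 0.61.

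SPARC encodes osteonectin, a collagen-binding matricellular glycoprotein. Its brightest probe gave log2 signals of 3.65 and 4.30 in KO and 3.33 and 2.39 in WT. The genotypes did not overlap, but KO replicate 1 and WT replicate 1 were close. The log2 fold change was 1.12 (SE 0.41, adjusted p = 0.0856 in limma), so that SPARC was not called by this probe. Its 7 probes had log2 fold changes between 0.97 and 1.32, close to the 2-fold threshold. Of these, 2 were called (limma adjusted p = 0.0321 and 0.0312), and these were the dimmest of the 7. With the slide as a block, the adjusted p of the brightest probe was 0.018 in limma and it was called.

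THBS1 encodes thrombospondin 1, a matricellular glycoprotein of platelets and stromal cells that binds several matrix proteins and growth factors. Its probes disagreed. The brightest one had log2 signals of 0.38 and 0.39 in KO and 0.37 and 0.48 in WT, and the genotypes overlapped. Its log2 fold change was -0.04 (SE 0.15, adjusted p = 0.834 in limma), with a 95% interval from -0.45 to 0.37. The other 5 probes were all called higher in KO, with log2 fold changes between 2.17 and 2.29 and with KO arrays above WT arrays on all of them. The next brightest probe, for example, had log2 signals of 1.13 and 1.01 in KO and -0.60 and -1.72 in WT. The interval of the brightest probe does not reach the lowest value of the other 5. Which transcripts each probe matches was not tested, since the array files used here hold no probe sequence. THBS1 was therefore counted as not called among the genes and as 5 called probes out of 6 among the probes.

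**Figure D2:**
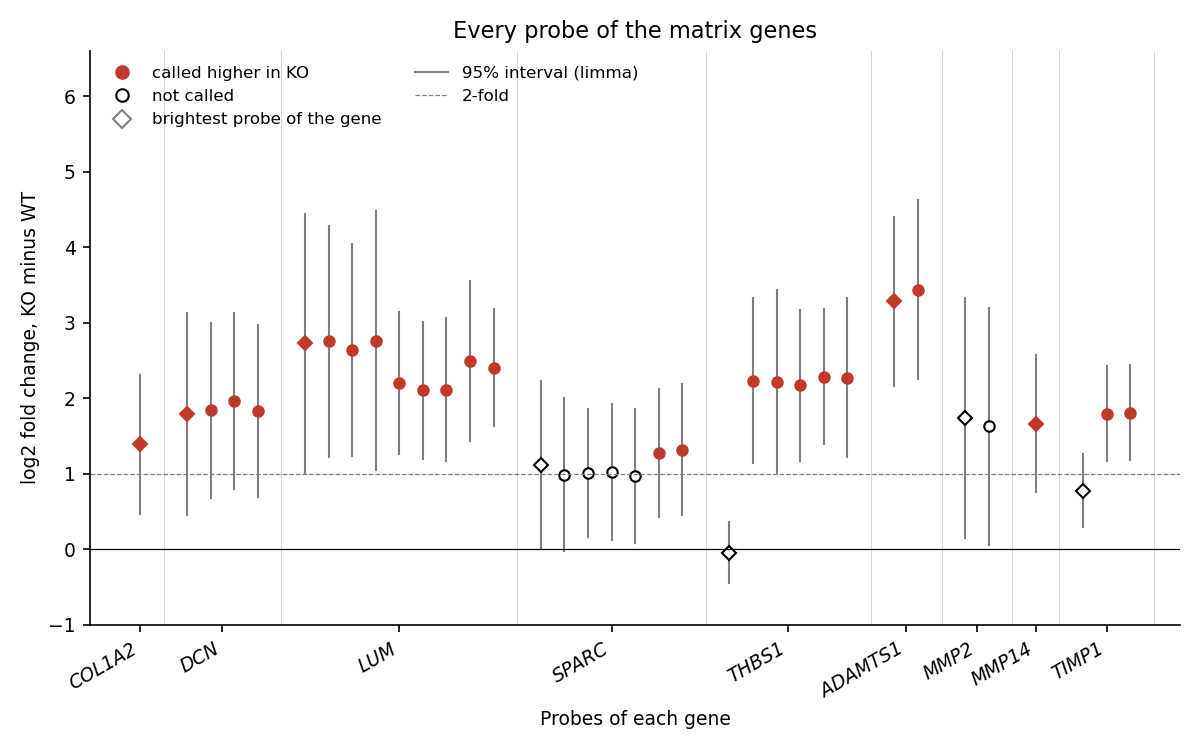
Log2 fold change of KO minus WT (vertical axis) for each of the 35 probes of the 9 matrix genes, ordered by brightness within a gene, with bars for the 95% interval from limma and a dashed line at 2-fold. The 26 called probes are filled, and the brightest THBS1 probe at -0.04 stands apart from the other 5 THBS1 probes at 2.17 to 2.29.

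The protease gene ADAMTS1 had the largest log2 fold change of the 9 genes. It encodes a secreted metalloprotease with thrombospondin repeats that cleaves the proteoglycans aggrecan and versican. Its log2 signals were 2.16 and 2.35 in KO and -0.45 and -1.60 in WT. In brightness this was 3411 and 3536 in KO, 453 in WT replicate 1 and 229 in WT replicate 2, so that the genotypes were far apart on every array. The log2 fold change was 3.28 (SE 0.42, adjusted p = 0.00621 in limma), or 9.72-fold. The second ADAMTS1 probe gave 3.44 (SE 0.44, adjusted p = 0.00628 in limma). ADAMTS1 was the only one of the 9 genes whose brightest probe was called with each of the 4 arrays left out in turn, and its log2 fold change then lay between 2.71 and 3.85.

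MMP2 encodes gelatinase A, which degrades denatured collagen and type IV collagen, and MMP14 encodes a membrane-bound metalloprotease that activates the MMP2 proenzyme at the cell surface. MMP14 had log2 signals of 4.55 and 5.04 in KO and 3.51 and 2.76 in WT, again with a gap between the genotypes. Its log2 fold change was 1.66 (SE 0.34, adjusted p = 0.019 in limma), from a single probe. MMP2 had log2 signals of 3.08 and 3.86 in KO and 2.48 and 0.98 in WT. Its KO arrays were above its WT arrays, but WT replicate 1 was nearer to KO replicate 1 than to WT replicate 2. The log2 fold change of 1.74 was larger than that of MMP14, yet it was not called (SE 0.59, limma adjusted p = 0.0705), nor was the second MMP2 probe, at 1.63 (adjusted p = 0.0803 in limma). The log2 ratio of MMP14 to MMP2 within an array came to 1.47 and 1.18 in KO, and in WT to 1.03 and 1.78. It differed by -0.08 between the genotypes, with the KO values inside the WT range.

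TIMP1 encodes a secreted inhibitor that binds the active site of most matrix metalloproteases. At its brightest probe the log2 signals were 4.32 and 4.55 in KO and 3.76 and 3.57 in WT. The replicates were close and the genotypes did not overlap. The log2 fold change was 0.77 (SE 0.18, adjusted p = 0.0268 in limma), which passed the adjusted p and not the 2-fold threshold. The other 2 TIMP1 probes were dimmer and were called, at 1.80 and 1.81 (limma adjusted p = 0.00664 and 0.00635). The size of the TIMP1 difference therefore depended on the probe, and TIMP1 was called with the mean over its 3 probes.

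The ratio of protease signal to TIMP1 signal on the same array depended on that choice as well. These are ratios of RNA signals, and whether TIMP1 inhibits each of these proteases was not tested. By the brightest probes, the log2 ratio of MMP14 to TIMP1 was 0.89 higher in KO and that of MMP2 to TIMP1 was 0.97 higher, with no overlap of the genotypes, although for MMP2 to TIMP1 the KO replicate 1 ratio of -1.25 was next to the WT replicate 1 ratio of -1.28. With the mean over the probes of a gene these differences were 0.20 and 0.22, and the KO and WT arrays overlapped. The ratio of ADAMTS1 to TIMP1 was 2.51 higher in KO by the brightest probes and 1.90 higher by the mean over probes, with no overlap in either case (two-sided exact permutation p = 0.333). Inhibitors other than TIMP1 were tested as well, and TIMP2 had log2 signals of 1.55 and 2.12 in KO and 2.60 and 2.62 in WT. Its log2 fold change of -0.77 (SE 0.24) had the opposite sign to that of TIMP1 and was not called, with an adjusted p of 0.0577 in limma. TIMP4 had no named probe.

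Within each slide the KO array was above the WT array at 34 of the 35 probes, the exception being the brightest THBS1 probe on slide 1. The difference was at least 2-fold on both slides at 26 of the 35 probes (74.3%), compared with 19.5% of all tested probes. It was smaller on slide 2 than on slide 1 at 28 of the 35 probes. By arithmetic, these are the probes where WT replicate 1 minus WT replicate 2 was larger than KO replicate 2 minus KO replicate 1. The 7 others were the 5 dimmer SPARC probes and the brightest probes of THBS1 and TIMP1. For ADAMTS1 the difference was 3.76 on slide 1 and 2.80 on slide 2, and for MMP14 it was 1.79 and 1.53. When limma was given the slide as a block, 31 of the 35 probes were called higher, compared with 21.5% of all tested probes, and so were 7 of the 9 genes, with MMP2 (adjusted p = 0.0167) and SPARC gained and none lost.

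**Figure D3:**
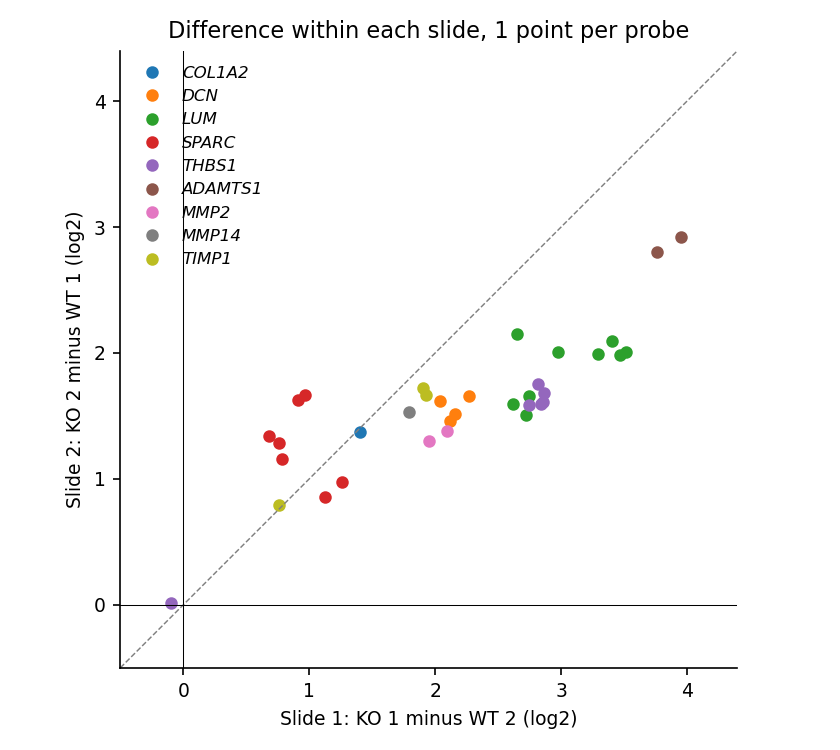
Log2 difference between the KO array and the WT array on slide 1 (horizontal axis) and on slide 2 (vertical axis), with 1 point for each of the 35 probes coloured by gene and a dashed line where both are equal. All LUM and ADAMTS1 probes and the 5 called THBS1 probes lie below the line, COL1A2 lies on it, and 5 SPARC probes lie above it.

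The 2 arrays of a genotype differed in a shared way at these genes, which is not independent of the comparison of the slides above. WT replicate 1 was above WT replicate 2 at 34 of the 35 probes, compared with 49.8% of all tested probes, and the median difference was 0.94. KO replicate 2 was above KO replicate 1 at 28 of the 35, compared with 50.2% of all tested probes, with a median of 0.29. A gap of 2-fold or more between the WT arrays was seen at 17 of the 35 probes (48.6%) and at 8.79% of all tested probes. COL1A2, DCN, MMP2 and MMP14 were higher on slide 2 in both genotypes. All 7 SPARC probes were higher on slide 2 in KO, by 0.59 to 0.84, and by 0.11 to 0.94 in WT. ADAMTS1 differed by 1.15 between the WT arrays and by 0.18 between the KO arrays at its brightest probe, and the 5 called THBS1 probes differed by 0.86 to 1.27 and by -0.21 to 0.02. The 5 dimmer LUM probes differed by -0.31 to 0.21 between the KO arrays and the 4 brighter ones by 0.19 to 0.33.

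Markers of fat cells, endothelium and macrophages moved with the same arrays. All 6 fat cell markers were higher in WT replicate 1 than in WT replicate 2, by a median of 1.14, and higher in KO replicate 2 than in KO replicate 1, by a median of 1.53. Their summed level, in units of the 75th percentile of the array, came to 40.1 and 117 in KO, and in WT to 17.6 and 9.61. FABP4 made up most of this sum on every array, with log2 signals of 5.08 and 6.63 in KO and 3.58 and 2.45 in WT. Of the 6 fat cell markers, ADIPOQ, PLIN1 and FABP4 were called higher in KO. All 4 endothelium markers were higher in WT replicate 1 and in KO replicate 2 as well, by medians of 0.69 and 0.15. Of the 7 macrophage markers, 6 were higher in WT replicate 1 and 7 in KO replicate 2, with median differences of 0.30 and 0.38. The 7 macrophage markers had summed levels of 227 and 289 in KO and 58.4 and 49.8 in WT, and the 4 tested endothelium markers, of which 3 were called higher, had 18.5 and 20.4 in KO and 6.79 and 4.45 in WT. The 11 thymocyte markers had 28.9 and 28.2 in KO and 155 and 221 in WT, and all of them were lower in WT replicate 1 than in WT replicate 2. Of the 8 fibroblast markers listed, only THY1 was tested, with log2 signals of -3.02 and -2.03 in KO and -3.07 and -3.59 in WT (limma adjusted p = 0.168). The part of fat, endothelium, macrophages or fibroblasts in the differences of the matrix genes was not tested.

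**Figure D4:**
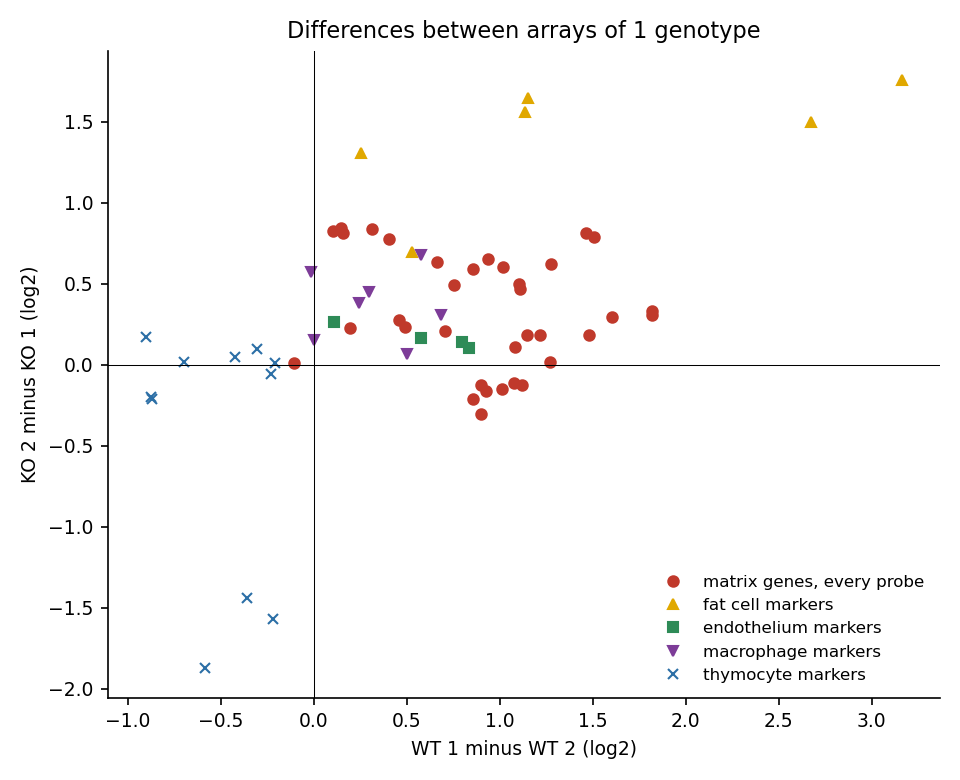
Log2 difference between the 2 WT arrays (horizontal axis, WT replicate 1 minus WT replicate 2) and between the 2 KO arrays (vertical axis, KO replicate 2 minus KO replicate 1). There is 1 point for each of the 35 probes of the matrix genes and for the brightest probe of each fat cell, endothelium, macrophage and thymocyte marker. Of the points drawn, those farthest up and farthest to the right are fat cell markers, 34 of the 35 matrix probes lie to the right of 0 and the thymocyte markers lie to the left. Markers of the other cell types are not drawn. Of these, WT replicate 1 minus WT replicate 2 was 3.14 for the platelet marker PPBP and -6.09 for the skeletal muscle marker MYH1.

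For muscle and platelet markers the calls depended on the probe. Of 4 tested smooth muscle and pericyte markers, CNN1 and RGS5 were called higher in KO by the brightest probe. The brightest probes of DES and ACTA2 had log2 fold changes of 0.33 and -0.53 and were not called. For ACTA2 that probe read 4.29 and 4.20 in KO, below the 4.67 and 4.87 of WT. Over all probes, 3 of 4 of DES and 1 of 4 of ACTA2 were called higher. Of 6 skeletal muscle markers, 3 were lower by the brightest probe and none higher, whereas over all 54 of their probes 26 were called lower and 7, all of CKM, were called higher. The brightest probes of the 4 tested platelet markers had log2 fold changes between -0.37 and -0.14, and 0 of them were called or passed an unadjusted p under 0.05 in limma, while the second ITGB3 probe was called higher at 1.97. Of the thymic epithelium markers, KRT8 was higher and EPCAM was not called, and the other listed ones had no named probe.

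Of 207 other matrix genes listed, 54 had a named probe and 50 were tested. By the fit, 25 were called higher in KO, 3 were called lower and 22 were not called, and their median log2 fold change was 1.20. The 25 include ADAMTS20, a secreted protease that was not well above background on either WT array and whose bound is under 2-fold, and 24 were called higher without it. With ADAMTS20 at its bound the median was 1.17. Among all 2702 named genes tested, 25.2% were called higher and 12.6% lower, and the median was -0.002. The list was drawn up from knowledge of the matrix, with the earlier results of these arrays known.

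The fibrillar collagens did not move as 1 group. COL5A3 and COL5A1, chains of type V collagen, which is built into the core of type I fibrils, were higher, by 3.04 (SE 0.43) and 1.56 (SE 0.24) on the log2 scale. COL5A2, the third chain of that family, had log2 signals of 2.35 and 2.82 in KO and 4.01 and 4.52 in WT and was called lower, at -1.68 (SE 0.28, adjusted p = 0.0113 in limma). All 4 COL5A2 probes were called lower, while 2 of the 3 COL5A1 probes were called higher and 1 stood at -0.05. LAMC1, a laminin chain of basement membranes, was higher by 2.84, and COL10A1, a collagen of growth plate cartilage, was at 0.15 and not called.

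Of the proteoglycans other than DCN and LUM, the cell surface proteoglycan SDC4 was higher by 1.80 (SE 0.17). VCAN, which encodes versican, ASPN, which belongs to the same family as DCN, and ACAN, which encodes aggrecan, had log2 fold changes of 1.49, 1.37 and 0.47 and were not called (limma adjusted p = 0.0561, 0.112 and 0.0674). Of the glycoproteins, POSTN, which encodes periostin, had log2 signals of 4.11 and 4.20 in KO and -0.61 and -0.15 in WT. The difference of 4.54 (SE 0.22, adjusted p = 0.00205 in limma) was shown by all 6 of its probes, which lay between 4.39 and 4.59. VWF, the von Willebrand factor of endothelium, and SPARCL1, the closest relative of SPARC, were higher by 2.23 and 2.13, and all 7 SPARCL1 probes were called. CTGF, SPP1 and VTN had the lowest values of this class, at 0.26, -0.20 and -0.63, and were not called, although 2 of 6 VTN probes were called higher.

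Enzymes and chaperones of matrix assembly were higher or not called. SERPINH1, the collagen chaperone of the endoplasmic reticulum, FKBP10, a prolyl isomerase that acts on procollagen, and LOX, which cross-links collagen and elastin, were higher by 2.43, 2.39 and 1.26. HAS3, P4HA1 and HAS1 were at 0.97, 0.95 and -0.94 and were not called. Of the other proteases, PLAT, the tissue plasminogen activator, was higher by 3.25 (SE 0.39), nearly the same log2 difference as that of ADAMTS1, and ADAMTS8 was higher by 2.33. ADAMTS20 was at least 1.45-fold higher in KO, a bound set against the lowest signal that is well above background, and the limma fit on the measured signals (adjusted p = 0.00449) does not test this bound. MMP9, which encodes gelatinase B, had log2 signals of 1.61 and 1.99 in KO and 3.94 and 3.13 in WT and was called lower, at -1.73 (adjusted p = 0.0171 in limma), the opposite direction to MMP2 and MMP14. HPSE, which encodes heparanase, was lower as well (-1.24), and ADAM10 was at -0.53 and not called.

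Of the 10 other inhibitors, 6 were called higher and none lower in limma, compared with 25.2% and 12.6% of all named genes. At an unadjusted p under 0.05 in limma, 7 of the 10 were higher and 1, TIMP2, was lower. Of all tested probes, 28.8% were higher and 28.0% lower at that threshold. ITIH4, a plasma protein of the inter-alpha-trypsin inhibitor family, had log2 signals of 2.18 and 2.28 in KO against -1.03 and -2.68 in WT, a rise of 4.08 (SE 0.58). SERPING1, the inhibitor of complement C1, and SERPINE2, a secreted inhibitor of thrombin, were higher by 2.51 and 1.90. The lowest values of this class were TIMP2 at -0.77, SERPINA1 at 0.12 and TFPI at 0.83, and none of these was called. Without KO replicate 1 the log2 fold changes of ITIH4, SERPING1 and SERPINE2 were 4.13, 2.71 and 1.78. Without KO replicate 2 they were 4.03, 2.32 and 2.02. For COL5A2, MMP9 and HPSE, the other matrix genes called lower, they were -1.44, -1.55 and -1.31 without KO replicate 1. Without KO replicate 2 those genes had -1.91, -1.92 and -1.17.

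**Figure D5:**
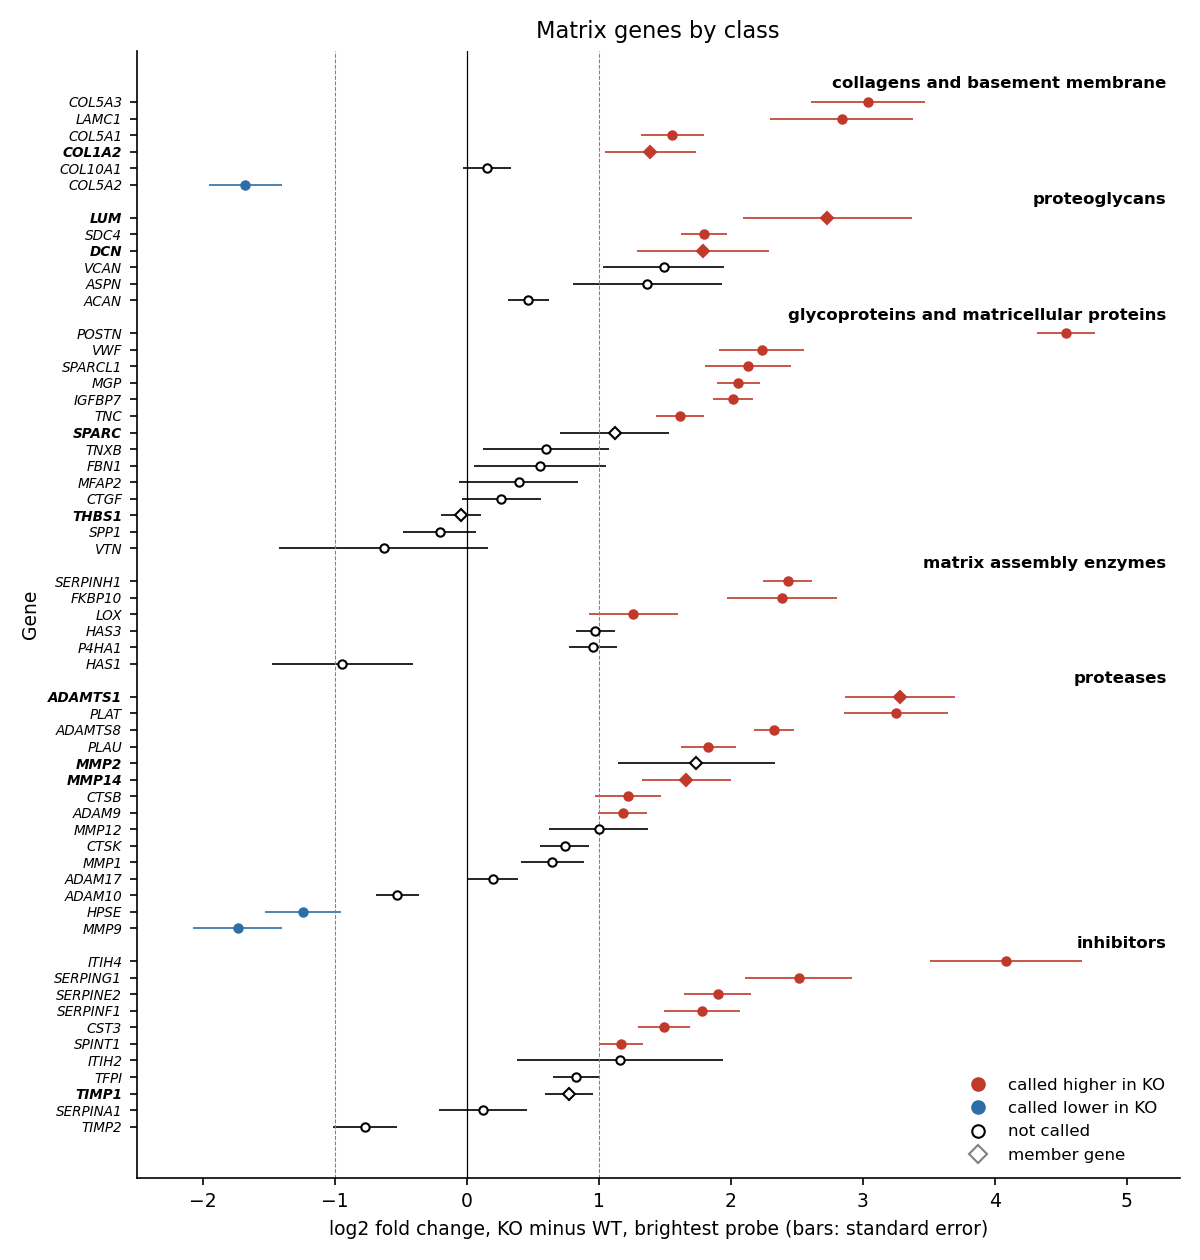
Log2 fold change of KO minus WT (horizontal axis) with its standard error for the brightest probe of the 9 matrix genes (diamonds, bold names) and of the other tested matrix genes (circles), grouped by class, with dashed lines at 2-fold. Called genes are filled, most lie to the right of 0, and COL5A2, HPSE and MMP9 are the 3 called lower. ADAMTS20, for which there is only a bound, is not drawn.

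The calls of single genes rested on few arrays. Without KO replicate 1 or without KO replicate 2, ADAMTS1 was the only one of the 9 genes called by its brightest probe (limma adjusted p = 0.0307 and 0.0336), and COL1A2, DCN, LUM and MMP14 lost their call. Of the 35 probes, 10 were called without KO replicate 1 and 8 without KO replicate 2, compared with 13.0% and 12.4% of all tested probes called higher. Without WT replicate 2, COL1A2 (adjusted p = 0.0658) and DCN (adjusted p = 0.0524) lost their call, and without WT replicate 1, MMP2 and SPARC gained one, all in limma. The probes called then numbered 22 of 35 without WT replicate 2 and 28 of 35 without WT replicate 1, compared with 20.5% and 23.2% of all tested probes. The direction of the log2 fold change was the same in each of these fits for every gene except THBS1, which lay at -0.10 to 0.01. Without KO replicate 1, COL1A2, DCN, LUM and MMP14 had log2 fold changes of 1.71, 2.10, 2.90 and 1.91, larger than with all arrays. Without KO replicate 2 these were 1.07, 1.48, 2.56 and 1.42, smaller than with all arrays.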

How the data were processed

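Thymus RNA of 2 IL2RG KO and 2 WT samples was measured on 4 one-colour arrays, grouped by the genotype in the labels. The intensity values were deposited by the authors as output of Agilent Feature Extraction, version 11.0.1.1, with the background subtracted and no normalisation between arrays. The log2 values that the authors deposited as well were quantile normalised signals of probes well above background on all 4 arrays, as a comparison with the intensities showed, and the methods name GeneSpring without a normalisation. The methods also describe Cy-3 and Cy-5 labelling, whereas the labels name Cy3 alone and the files hold 1 channel.

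Control spots and outlier spots were left out, which removed 6 of 43603 probes. Log2 signals of the spots of 1 probe were averaged, and the probe values were scaled to their 75th percentile on each array. Of these, 31959 probes were fitted with lmFit and eBayes of limma 3.58.1 in R 4.3.3. Python 3.11.15, pandas 2.3.3 and matplotlib 3.10.9 were used for tables and plots. Names came from 6686 of the 7111 probes with a RefSeq accession, matched to RefSeq's gene table for Sscrofa11.1, which was used for names and gene order alone. Where a genotype was not well above background, the fold is a bound: the mean of the brighter genotype was set against the dimmer one, with each dim array at its lowest well above background signal or at the probe's own where that was higher. The procedure was tested on simulated data.

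The matrix genes, the lists and the tests were chosen with earlier results of these data known. Values are given for every matrix gene named at the start, for the 3 highest and 3 lowest of the other matrix genes in each class, and for marker lists as counts and ranges. The results of 1 gene are not reported here, and the list of other matrix genes was counted without it. The alternatives were quantile and median scaling, normexp with an offset of 50 on the median intensity (the files hold no mean), the deposited log2 values, other filters, a block for the slide or for the replicate number, the methods' t-test, an intensity trend, a 4-fold threshold, the mean over the probes of a gene, and each array left out. Same-numbered arrays of the 2 genotypes deviated from their group means with a correlation of -0.29, so that the numbers were not taken to pair them. The number of arrays limits the precision. Probe sequences were not used here.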

Additional observations from a re-analysis of the deposited data

How the results depend on the processing

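By the brightest probe 5 of the 9 matrix genes were called, and quantile normalisation, median scaling, normexp, the deposited log2 values, the stricter filter, the intensity trend and the mean over probes gave 5 to 7. With no filter on dim probes 3 were called (COL1A2 and DCN lost), with a 4-fold threshold 2, and with the methods' t-test 0 under either the Bonferroni correction or Benjamini-Hochberg adjustment. The 26 called probes became 16 at 4-fold and 0 under either t-test adjustment, and lay between 22 and 31 otherwise with all arrays. The 28 called other matrix genes, ADAMTS20 included, became 14 at 4-fold, 4 with the t-test after Benjamini-Hochberg adjustment and 0 after Bonferroni correction. Over all tested probes, the 10882 calls became 6611 with normexp, 4878 at 4-fold, 1505 with the t-test after Benjamini-Hochberg adjustment and 0 after Bonferroni correction. At an unadjusted p under 0.05 with 2-fold, the methods' t-test called 1 of the 9 matrix genes (11.1%) and 10 of their 35 probes (28.6%). It called 22 of 50 other matrix genes (44%) and 8611 of all tested probes (26.9%) in either direction, and 16.0% of all tested probes higher. The lowest log2 fold change of a matrix probe was -0.04, so that all the matrix probes called here were higher. The share of all tested probes to set beside their 28.6% is therefore the 16.0% called higher. Probes of 1 gene are not independent of each other. Leaving out each array in turn gave 1 to 7 matrix genes, 8 to 28 of their probes, 17 to 29 other matrix genes and 6073 to 12922 of all probes, and when 1 array of a genotype was left it was assumed to vary like the other genotype. THBS1 turned from -0.04 by its brightest probe to 1.86 (adjusted p = 0.0133 in limma) with the mean over its probes, and was 0.00 with normexp. Median scaling moved the median of all probes by -0.26 on the log2 scale and turned the split of 6712 higher and 4170 lower probes into 5810 and 6334, and the number of called probes of the matrix genes was 26 as before. With the replicate number as a block 3 matrix genes (COL1A2 and DCN lost), 24 of their probes, 27 other matrix genes and 10668 probes in all were called. Same-numbered arrays deviated in opposite directions, and the crossed pairing, chosen after the data were seen and the same as the slide block, called 7, 31, 30 and 11124. All 35 probes were well above background on every array, so that the filters removed none of them. The size of the difference at dim probes still changed with normexp and its offset of 50. The dimmest LUM probe went from 2.40 to 1.35 and the dimmest THBS1 probe from 2.27 to 1.46, and both were still called.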

Other observations

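For 3 of the matrix genes the named gene with the most similar pattern was looked up among 2693 others, as the smallest mean absolute difference over the 4 arrays after each gene was centred on its own mean. The points share the 4 arrays, their scaling and their slides, and no test was made. For COL1A2 this was FOLR1, a folate receptor, with a mean difference of 0.0241 on the log2 scale and a log2 fold change of 1.41. For LUM it was P2RY12, an ADP receptor of platelets and microglia, with 0.0428 and a log2 fold change of 2.67. For ADAMTS1 it was TNFSF13, a cytokine that acts on B cells, with 0.0747, followed by PLAT with 0.0757.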
